A study of Mus musculus with 6 samples.

Results

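A set of 40 genes of the secretory pathway was examined in mouse breast tumors: the chaperones of the endoplasmic reticulum (ER), the translocon through which new proteins enter it, the degradation system that removes misfolded proteins, and the sensors and transcription factors of the unfolded protein response. The 40 genes were chosen by name for these roles, and they are 40 of the 18460 genes that were listed with reads in at least 1 tumor. All 40 were listed in all 6 tumors, all 40 passed the filter on low counts, and the lowest expected count of any of them in any tumor was 26.

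RNA sequencing was available for 6 bulk breast tumors from Balb/c mice, each from a separate mouse. The 3 test tumors came from K14-TSLPtg;PyMTtg;Rag1KO mice and the 3 control tumors from PyMTtg;Rag1KO mice. Mice of both groups carried the PyMT transgene, an oncogene that gives spontaneous mammary tumors, lacked their own T and B cells because Rag1 was deleted, and received CD4+ T cells at 4 weeks of age. Tumors were collected at the endpoint, at 18 to 20 weeks. The groups differed by the TSLP transgene, which the K14 promoter drives. The paper describes the induced TSLP as released from keratinocytes of the skin. Whether tumor cells expressed the transgene was not tested. The comparison asks what TSLP, in mice given CD4+ T cells, changes in the tumor. Expected counts summed to 9249064, 8908390 and 9090055 in control replicates 1 to 3 and to 8373390, 8571403 and 9449565 in test replicates 1 to 3. Tslp itself had 2, 2 and 3 expected counts in the control tumors and 12, 7 and 2 in the test tumors, so test replicate 3 was at the level of the controls and the labels could not be checked by this gene. Rag1 had 27, 4 and 10 counts in the control tumors and 6, 12 and 9 in the test tumors, and which part of the gene is deleted was not examined.

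A secreted or membrane protein enters the ER through the Sec61 channel, loses its signal peptide, and is folded by the Hsp70 chaperone Hspa5, the Hsp90 chaperone Hsp90b1, the lectins Calr and Canx and the disulfide isomerases. When unfolded proteins build up, the sensors Ern1, Eif2ak3 and Atf6 raise the synthesis of chaperones and of degradation genes through the factors Xbp1, Atf6 and Atf4. Secretory epithelium such as the lactating mammary gland and antibody-producing plasma cells are known for a large ER.

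Some tumors stood apart from their group. Across genes, which are not independent replicates, the log2 level in control replicate 2 had a Pearson correlation of 0.874 and 0.908 with control replicates 1 and 3, against 0.921, 0.927 and 0.935 with test replicates 1, 2 and 3. Levels also moved with gene length. In genes under 1000 bases, the median log2 deviation of a tumor from the mean of the 6 tumors was 0.79 in test replicate 2 and -0.35 in control replicate 1, and in genes over 4000 bases it was -0.40 in test replicate 2 and 0.20 in control replicate 1. The median log2 fold change (test minus control) was accordingly 0.42 over the 997 tested genes under 1000 bases, 0.17 over the 3119 genes from 1000 to 2000 bases, -0.01 over the 5736 genes from 2000 to 4000 bases and -0.15 over the 3854 longer genes. The members run from 552 bases (Sec61b) to 9306 bases (Ssr1). Each role and the results that depend on these tumors are therefore also given without control replicate 2 or after the trend with gene length was removed from each tumor.

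No single member passed the test between the groups. By the quasi-likelihood test of edgeR over 13706 genes, adjusted by Benjamini and Hochberg's method, 0 of 40 members and 0 genes in all (0%) reached an adjusted p of 0.05; the lowest adjusted p was 0.636 among the members and 0.394 among all genes. DESeq2 called 313 genes and limma on log2(FPKM + 1) called 1 gene, with 0 members in either. At an unadjusted p under 0.05 there were 0 members with higher levels in test tumors, against 432 of all tested genes (3.15%), and 0 members with lower levels, against 721 (5.26%); DESeq2 gave 1386 genes at that unadjusted p, with 0 members. Every test tumor lay above every control tumor for 3 of the 40 members (7.5%), Ssr2, Ssr4 and Atf4, against 6.12% of all tested genes, and below every control tumor for 0 members, against 5.86%. The share above is near that of all genes. The shares of members below every control tumor and at that unadjusted p were 0, and their difference from those of all genes was not tested. Without test replicate 3, 3 of the 40 members lay below every control tumor, against 10.69% of all genes. The median log2 fold change of the members was 0.11, with 29 higher and 11 lower in test tumors, and that of all tested genes was 0.02, with 7058 higher and 6648 lower. Fold changes of the members ran from -0.51 (Canx) to 0.67 (Herpud1). For 18 of the 40 (45%), against 32.1% of all tested genes, the 95% interval of the log2 fold change lay within 1 unit of 0 on either side; the other intervals were wider, with bounds as far as -1.82 and 1.94. Without control replicate 2 the test called 182 genes, again with 0 members, and the median log2 fold change of the members was 0.14. By role the median was then 0.11 for chaperones, -0.13 for lectins and isomerases, 0.60 for the translocon, -0.01 for degradation, -0.24 for sensors and factors and 0.21 for the targets of Atf4. With the length trend removed and all 6 tumors kept, the median of the members was 0.08, and by role it was 0.10, -0.07, 0.12, 0.21, -0.12 and 0.30 in the same order.

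**Figure D1:**
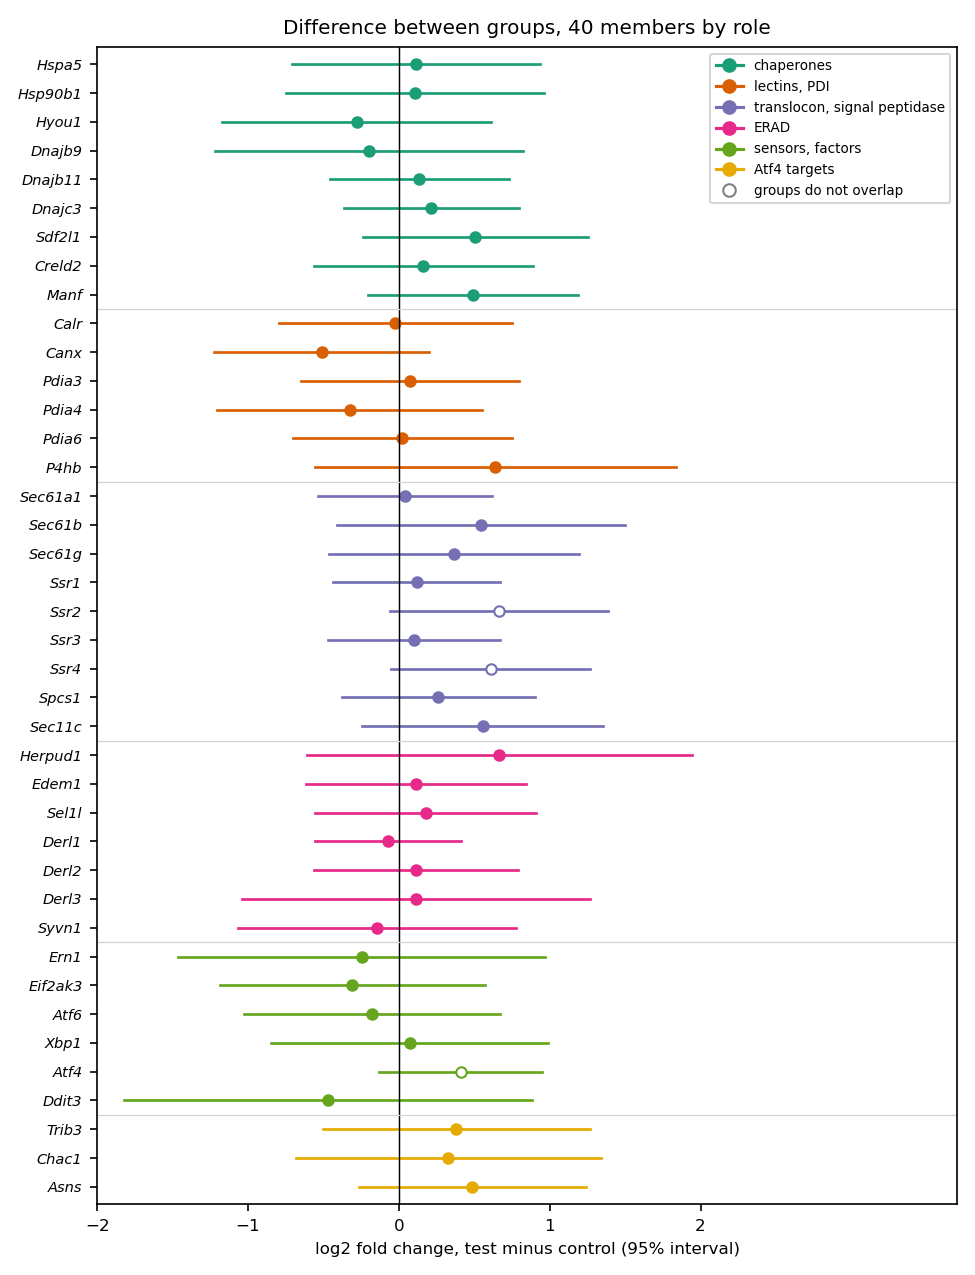
Log2 fold change of each of the 40 members, test minus control tumors, with its 95% interval from edgeR's quasi-likelihood fit (points and lines, colored by role; open points mark the genes whose groups do not overlap). Every interval spans 0, and the 9 genes of the translocon and signal peptidase lie to the right of 0.

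The level of the whole set overlapped between the groups. Summed over the 40 members, FPKM was 4601, 5067 and 5144 in control replicates 1 to 3 and 4499, 5403 and 6748 in test replicates 1 to 3. The means were 4937 ± 293.7 in control tumors and 5550 ± 1132 in test tumors (SD, n = 3 each), a log2 ratio of 0.17. Test replicate 1 had the lowest sum and test replicate 3 the highest, so the groups overlapped. The members took 1.10%, 1.19% and 1.21% of all expected counts in the control tumors and 1.04%, 1.16% and 1.60% in the test tumors. Between tumors of a group the members varied about as much as other genes did: the median standard deviation of log2(CPM + 0.5) within groups was 0.40 for the members and 0.45 for all tested genes. In these bulk tumors, fewer cells of a type and less RNA per cell cannot be told apart.

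The tumor with the highest level differed by role. On CPM, which are counts brought to a common library size by TMM, test replicate 3 held the highest value for 14 of the 40 members and the lowest for 0, while it was the highest tumor for 11.1% and the lowest for 12.2% of all tested genes. Test replicate 2 was highest for 10 members (25%) and lowest for 8 (20%), near its shares of all genes, 25.7% and 25.4%. Test replicate 1 was highest for 6 (15%) and lowest for 10 (25%), against 18.5% and 17.7% of all genes. Control replicate 1 was highest for 4 (10%) and lowest for 11 (27.5%), against 21.2% and 21.6%, and control replicate 2 highest for 1 (2.5%) and lowest for 10 (25%), against 12.6% and 13.3%. Control replicate 3 was, like test replicate 3, seldom the lowest, for 1 member (2.5%) against 9.7% of all genes, and it was highest for 5 (12.5%) against 10.8%. Most chaperones and the disulfide isomerases Pdia6 and P4hb were highest in test replicate 3. Dnajb9 was highest in control replicate 3, Pdia3 in test replicate 2 and Pdia4 in control replicate 1. The small subunits of the translocon were highest in test replicate 2, and Herpud1 in test replicate 1.

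**Figure D2:**
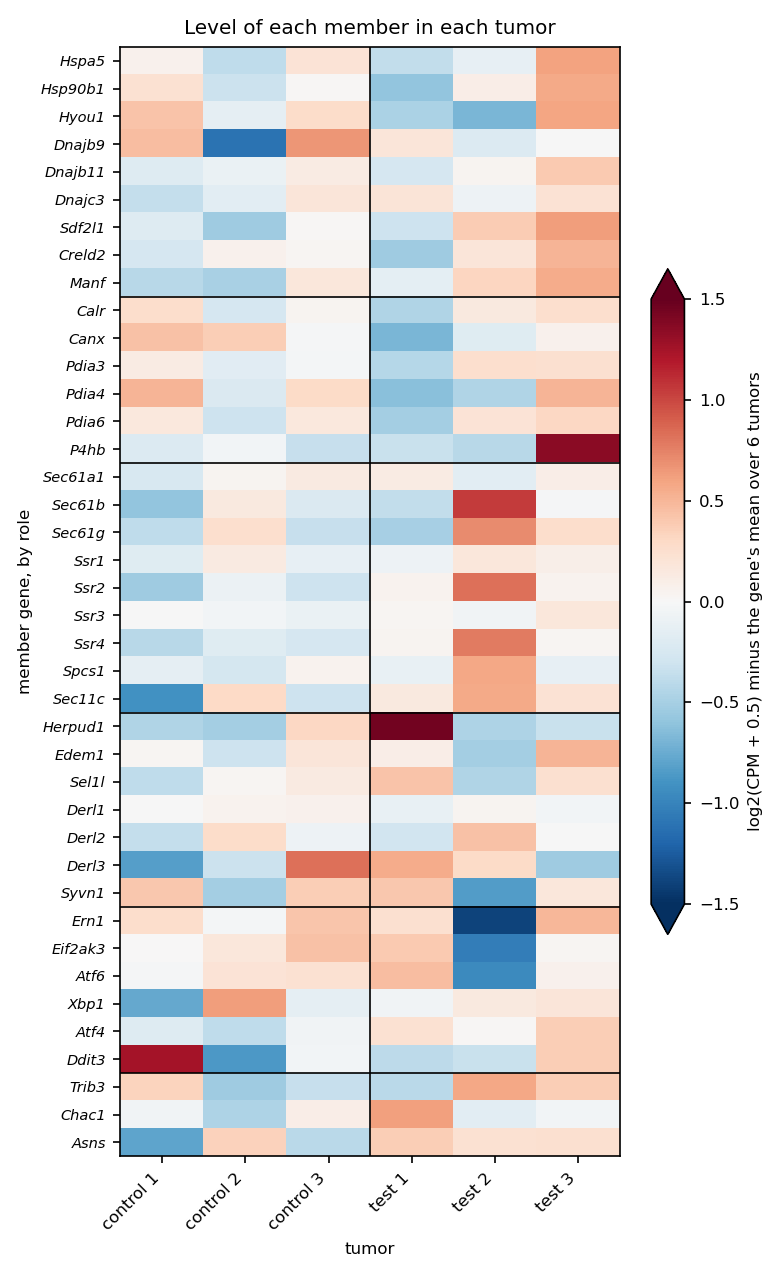
Level of each member (rows, by role) in each tumor (columns), as log2(CPM + 0.5) minus the mean of that gene over the 6 tumors; red is above and blue below that mean. Test replicate 3 is red for most chaperones, and test replicate 2 is red for the small translocon subunits and blue for Ern1, Eif2ak3 and Atf6.

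Chaperones were described from the Hsp70 and Hsp90 proteins outward. Hspa5 (BiP, NCBI Gene 14828, chr2:34772090-34776529 in GRCm38.p6) is the main Hsp70 of the ER, and its promoter is the textbook target of the response. The 200 bases before its RefSeq gene start (chr2:34771890-34772089, plus strand, promoter) are printed because they hold an exact ER stress response element, in capitals, which is CCAAT, then 9 bases of any kind, then CCACG.
Hspa5 promoter: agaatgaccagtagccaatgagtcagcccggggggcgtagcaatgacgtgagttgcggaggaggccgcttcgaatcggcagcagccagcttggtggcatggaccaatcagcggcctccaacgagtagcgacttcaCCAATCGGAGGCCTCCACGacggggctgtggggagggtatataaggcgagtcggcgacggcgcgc

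The same letters were searched on both strands of the RefSeq promoter windows, from 250 bases before to 50 bases after each gene's start. Of the 40 members 33 had a window; Hyou1, Manf, Sec61a1, Ssr2, Sec11c, Derl1 and Atf6 had none. An exact element lay in 9 of the 33 members (27.3%) and in 39 of all 32851 windows (0.119%). With 1 mismatch allowed it lay in 16 members (48.5%) and in 494 of all windows (1.504%). The 9 members were Hspa5, Hsp90b1, Dnajc3, Creld2, Calr, Canx, Pdia6, Derl3 and Syvn1, and Hsp90b1 had a pair of them. The elements are shown 5' to 3' along the gene, with 10 bases on each side and the element in capitals, to show what the members share; those that read CGTGG, then 9 bases, then ATTGG are the same element on the opposite strand.
Hspa5, chr2:34772015-34772053, plus strand: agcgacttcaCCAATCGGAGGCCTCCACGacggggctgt
Hsp90b1, chr10:86705628-86705666, minus strand: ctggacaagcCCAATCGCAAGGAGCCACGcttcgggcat
Hsp90b1, chr10:86705523-86705561, minus strand: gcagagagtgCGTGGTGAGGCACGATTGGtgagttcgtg
Dnajc3, chr14:118937817-118937855, plus strand: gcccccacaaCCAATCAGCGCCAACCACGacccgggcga
Creld2, chr15:88819510-88819548, plus strand: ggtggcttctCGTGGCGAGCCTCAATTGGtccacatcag
Calr, chr8:84847065-84847103, minus strand: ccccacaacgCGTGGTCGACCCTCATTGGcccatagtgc
Canx, chr11:50325790-50325828, minus strand: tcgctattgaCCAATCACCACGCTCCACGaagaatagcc
Pdia6, chr12:17266481-17266519, plus strand: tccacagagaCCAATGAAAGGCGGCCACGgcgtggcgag
Derl3, chr10:75893232-75893270, plus strand: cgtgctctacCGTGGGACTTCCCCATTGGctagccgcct
Syvn1, chr19:6046522-6046560, plus strand: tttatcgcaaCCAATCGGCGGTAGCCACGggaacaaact

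Differences between the groups were given for members with and without the element side by side. Their median log2 fold change was 0.11 over the 9 members with an exact element, 6 higher and 3 lower in test tumors, and 0.16 over the 24 other members with a window, 19 higher and 5 lower. The second form of the element, ATTGG, then 1 base, then CCACG, lay in Herpud1 and Dnajb11, 2 of 33 members (6.1%), and in 0.037% of all windows. TGACGTGG, an element bound by Xbp1 and Atf6, lay in 0 of the 33 members and in 0.676% of all windows. A match is a stretch of letters and shows no binding in these tumors.

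Hspa5 was at 817, 601 and 907 CPM in control replicates 1 to 3 and at 608, 717 and 1191 CPM in test replicates 1 to 3. Test replicate 3 was the highest tumor and test replicate 1 lay next to control replicate 2, the lowest, so the groups overlapped. The log2 fold change of Hspa5 was 0.11 (standard error 0.35, 95% interval -0.71 to 0.94, adjusted p = 0.945), and it was -0.04 without control replicate 2 and -0.21 without test replicate 3. Hsp90b1 (Grp94), the most abundant gene of this role per length at a mean of 340.8 FPKM over the 6 tumors, was at 1082, 736 and 932 CPM in control tumors and at 610, 990 and 1362 CPM in test tumors. Its lowest and its highest value were both in test tumors. The log2 fold change of Hsp90b1 was 0.11 (standard error 0.37, 95% interval -0.75 to 0.96, adjusted p = 0.952), -0.03 without control replicate 2 and -0.18 without test replicate 3.

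The cofactors of these chaperones differed in their order of tumors. Dnajb9 was highest in control replicate 3 and Dnajc3 lowest in control replicate 1, while Dnajb11 and Creld2 were highest in test replicate 3 and lowest in test replicate 1. Over all 9 genes of the role, Hspa5 and Hsp90b1 included, the mean log2 level relative to the 6-tumor mean was -0.02, -0.35 and 0.19 in control replicates 1 to 3 and -0.25, -0.01 and 0.45 in test replicates 1 to 3, with test replicate 3 the highest and control replicate 2 the lowest. The median log2 fold change was 0.14, with 7 genes higher and 2 lower in test tumors and 0 of 9 free of overlap. It was -0.07 without test replicate 3 and 0.30 without test replicate 1. With the length trend removed, 1 of 9 was free of overlap, against 12.4% of all genes. This was Dnajc3, at a log2 fold change of 0.377 against 0.215 as fitted. The co-chaperones Dnajb11, Dnajc3 and Sdf2l1, the folding factor Creld2 and the secreted ER protein Manf had log2 fold changes from 0.14 to 0.51. Sdf2l1 was the highest of these, and without test replicate 1 it had 0.74 without overlap (unadjusted p = 0.0419, adjusted p = 0.597), against 0.31 without test replicate 3 and 0.26 with the length trend removed. Hyou1, an Hsp70-like exchange factor, had -0.28; this was -0.77 without test replicate 3, with both other test tumors below every control tumor (unadjusted p = 0.0488, adjusted p = 0.647), and -0.04 without test replicate 2. Dnajb9, the co-chaperone that holds Ern1 inactive, had -0.20. This gene, which was singled out after its values were seen, was at 83.0, 27.5 and 95.3 CPM in control tumors and at 67.9, 51.9 and 59.6 CPM in test tumors. Control replicate 2 alone was low for it. Without that tumor both remaining controls lay above every test tumor, and the log2 fold change was -0.57 (adjusted p = 0.402), whereas it was 0.11 without control replicate 3 and -0.04 without control replicate 1.

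Lectin chaperones and disulfide isomerases held the most abundant members per length. Calr, the lumenal lectin that binds glycoproteins during folding, had the highest mean of the 40 genes at 878 FPKM. It was at 2030, 1416 and 1744 CPM in control tumors and at 1232, 1862 and 2018 CPM in test tumors. The lowest tumor was test replicate 1 and the groups overlapped. The log2 fold change of Calr was -0.02 (standard error 0.33, 95% interval -0.79 to 0.75, adjusted p = 0.989), and it was 0.10 without control replicate 1 and 0.17 without test replicate 1.

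The other 5 genes of this role had log2 fold changes from -0.51 to 0.64, and the role's median was 0.00, with 3 higher and 3 lower. Canx, the membrane-bound lectin, and P4hb (protein disulfide isomerase) lay at these ends and were singled out after their values were seen. Canx was at 782, 740 and 568 CPM in control tumors and at 358, 506 and 603 CPM in test tumors. Its test replicate 3 exceeded control replicate 3, which is the overlap between the groups, and the log2 fold change was -0.51 (95% interval -1.22 to 0.20, adjusted p = 0.7). P4hb was at 1081, 1212 and 978 CPM in control tumors and at 989, 931 and 3174 CPM in test tumors. Test replicate 3 alone was high for P4hb, which at 1242 FPKM was there above Calr at 1036 FPKM, and its log2 fold change of 0.64 became -0.17 once this tumor was left out. The median of this role was 0.20 without test replicate 1 and -0.16 without test replicate 3. Its summed FPKM was 2310, 2072 and 2234 in control tumors and 1680, 2131 and 3295 in test tumors.

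Translocon and signal peptidase genes had, as fitted over all 6 tumors, the highest median of the roles of more than 3 genes. The degradation genes had a higher one with the length trend removed (0.21 against 0.12). Without test replicate 2, the chaperones (0.16) and the degradation genes (0.15) both had a higher one than the translocon (0.13). As fitted, all 9 had a positive log2 fold change, with a median of 0.37, while 0 had an unadjusted p under 0.05. Ssr2 (NCBI Gene 66256, chr3:88579608-88588420), the beta subunit of the translocon-associated protein complex, was at 195.8, 266.7 and 229.7 CPM in control tumors and at 294, 505 and 296 CPM in test tumors. Every test tumor was above every control tumor, and test replicate 2 was far above the other test tumors. Its log2 fold change was 0.66 (standard error 0.31, 95% interval -0.06 to 1.38, unadjusted p = 0.0675, adjusted p = 0.639), and the exact permutation test gave the smallest p that 3 against 3 tumors allow, 0.1 (two-sided). Ssr4 (NCBI Gene 20832, chrX:73787023-73790828), the delta subunit of the same complex, was at 72.9, 86.2 and 81.9 CPM in control tumors and at 100.2, 168.4 and 99.2 CPM in test tumors. The order of the tumors was like that of Ssr2, with no overlap and test replicate 2 the highest. Its log2 fold change was 0.61 (standard error 0.28, 95% interval -0.05 to 1.27, unadjusted p = 0.0655, adjusted p = 0.636), again with an exact permutation p of 0.1.

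The other 2 subunits of that complex, Ssr1 and Ssr3, had smaller log2 fold changes as fitted, 0.12 and 0.10, and their transcripts of 9306 and 2885 bases are longer than those of Ssr2 (1183 bases) and Ssr4 (724 bases). Within the Sec61 channel, the pore-forming Sec61a1 (3039 bases) had 0.04, while the small subunits Sec61b (552 bases) and Sec61g (756 bases) had 0.54 and 0.37. Of the signal peptidase genes, Spcs1 (1022 bases) had 0.26 and Sec11c (770 bases) 0.56. The 6 shorter genes of this role were each highest in test replicate 2, the tumor in which short genes were high over the whole table, and so was Ssr1, the longest. Sec61b, singled out for this reason, was at 37.5, 62.5 and 48.8 CPM in control tumors and at 43.6, 117.3 and 56.0 CPM in test tumors.

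After the trend with gene length was removed, the median of the 9 genes was 0.12, with 7 higher and 2 lower, and without test replicate 2, with no such removal, it was 0.13. Leaving out that tumor gave 0.36 for Ssr2 and 0.31 for Ssr4. With the trend removed, the log2 fold change of Sec61b was 0.03, that of Sec61g -0.01, that of Spcs1 -0.04, that of Ssr4 0.23 (adjusted p = 0.756) and that of Ssr2 0.40 (95% interval -0.05 to 0.86, adjusted p = 0.621). Ssr1 had 0.40 on that scale (95% interval -0.33 to 1.13), close to Ssr2 and above Ssr4, with overlap, and Ssr3 had 0.12 without overlap. Ssr2 was there at 229.5, 266.4 and 246.6 CPM in control tumors and at 325.4, 356.2 and 299.7 CPM in test tumors, still without overlap. Ssr4 also had no overlap on that scale, from 86.0 to 93.0 CPM in control and from 99.0 to 117.2 CPM in test tumors. What made short genes high in test replicate 2 was not tested. Without control replicate 2, Sec11c had a log2 fold change of 0.91 (95% interval 0.16 to 1.67, unadjusted p = 0.025, adjusted p = 0.259), without overlap. It was 0.30 without control replicate 1 and 0.27 with the trend removed (unadjusted p = 0.373), both with overlap.

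**Figure D3:**
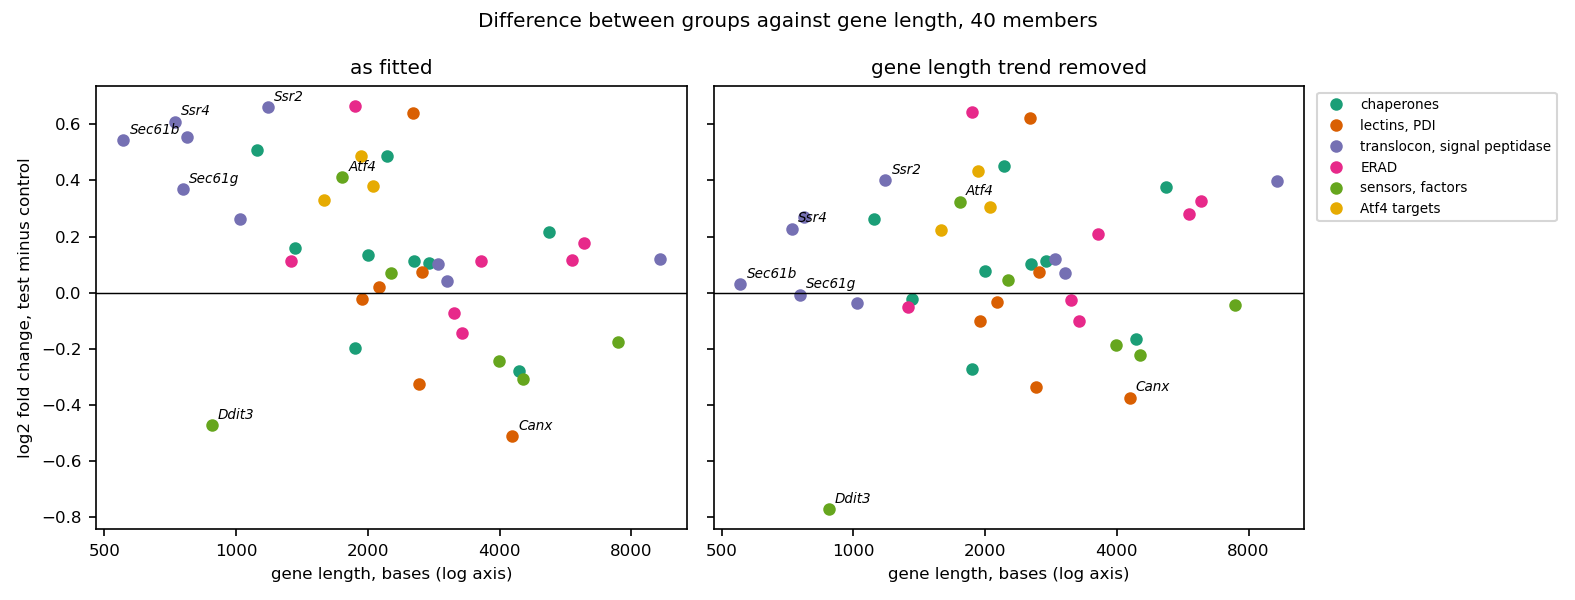
Log2 fold change (test minus control) of the 40 members against gene length in bases on a log axis, as fitted (left) and after each tumor's trend with gene length was removed (right), colored by role. Sec61b moved from 0.54 to 0.03 and Ssr4 from 0.61 to 0.23, while Ssr2 was at 0.40 on the right.

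In ER-associated degradation a single tumor stood out. Herpud1, a membrane protein of the degradation complex, was at 61.0, 58.5 and 104.1 CPM in control tumors and at 228.2, 60.5 and 65.9 CPM in test tumors. Test replicate 1 was far above the other 5 tumors, and the 2 other test tumors lay within the range of the controls. For Herpud1 the log2 fold change was 0.67 (standard error 0.55, 95% interval -0.61 to 1.94, adjusted p = 0.775), and without test replicate 1 it was -0.24. The promoter of Herpud1 held both the second form of the ER stress response element and, upstream of it on the opposite strand, the letters TGATG, then 1 base, then AA, which are those of the amino acid response element bound by Atf4. They are shown in capitals.
Herpud1 stress element, chr8:94386367-94386397, plus strand: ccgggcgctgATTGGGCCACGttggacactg
Herpud1 amino acid element, chr8:94386307-94386334, plus strand: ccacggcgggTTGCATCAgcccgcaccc

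The other 6 degradation genes had log2 fold changes from -0.14 (Syvn1, the ubiquitin ligase of the complex) to 0.18 (Sel1l, its adaptor). Edem1, a lectin that passes glycoproteins to degradation, had 0.11, and the channel genes Derl1, Derl2 and Derl3 had -0.07, 0.11 and 0.11. The role's median was 0.11, with 5 higher and 2 lower and 0 of 7 without overlap, and it was -0.04 without test replicate 1. With the length trend removed Herpud1 had 0.64, and 4 genes of the role were higher and 3 lower. Derl1 had the narrowest interval of these genes, -0.56 to 0.41. Its levels ran from 83.0 to 87.5 CPM in control tumors and from 77.4 to 85.6 CPM in test tumors.

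The sensors of the response were among the least abundant members per length, with means of 2.47 FPKM for Ern1, 10.9 FPKM for Eif2ak3 and 9.47 FPKM for Atf6. Ern1 (IRE1), the kinase and nuclease that splices Xbp1, was at 11.0, 8.87 and 12.3 CPM in control tumors and at 10.8, 3.17 and 13.1 CPM in test tumors. Eif2ak3 (PERK), the kinase that slows translation, was at 47.0, 52.6 and 63.6 CPM in control tumors and at 61.5, 22.6 and 47.8 CPM in test tumors. Atf6, the membrane-bound factor that is cut free in the Golgi, was at 67.2, 79.0 and 80.2 CPM in control tumors and at 94.1, 34.9 and 71.4 CPM in test tumors. All 3 sensors were low in test replicate 2 and near the controls in the other test tumors. The log2 fold changes were -0.25 for Ern1 (95% interval -1.46 to 0.97, adjusted p = 0.911), -0.31 for Eif2ak3 (-1.18 to 0.57, adjusted p = 0.836) and -0.18 for Atf6 (-1.02 to 0.67, adjusted p = 0.908). Without test replicate 2 they were 0.16, 0.01 and 0.13. The 3 genes are 3976, 4512 and 7463 bases long, and long genes were low in that tumor. With the trend removed, it was still the lowest for each, at 3.74, 27.9 and 49.0 CPM. The log2 fold changes were then -0.19 for Ern1, -0.22 for Eif2ak3 and -0.04 for Atf6.

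Xbp1 (NCBI Gene 22433, chr11:5520641-5525993), the factor that Ern1 activates, was the most abundant of the sensors and factors at a mean of 494 FPKM. It was at 629, 1659 and 973 CPM in control tumors and at 1030, 1184 and 1213 CPM in test tumors. Control replicates 1 and 2 were its lowest and highest tumors and all test tumors lay between them. Its log2 fold change was 0.07 (standard error 0.39, 95% interval -0.85 to 0.99, adjusted p = 0.969). Without control replicate 2 the test tumors were all above both controls, with a log2 fold change of 0.51 (95% interval -0.29 to 1.32, adjusted p = 0.538), and without control replicate 1 it was -0.21.

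The deposited gene length gave a second readout for Xbp1. Active Ern1 cuts a short intron from the Xbp1 messenger in the cytosol, which shifts the reading frame and lengthens the protein. In a GENCODE transcript of Xbp1, 2129 bases long, a search of the coding sequence for a pair of cut sites (CNG before and CNG after each cut) whose removal lengthens the open reading frame found 4 candidates, of 26, 29, 35 and 38 bases. A stricter rule, CAGC after both cuts, left 1 of them, of 26 bases at positions 815 to 840 of the transcript; this rule was set after the 4 had been seen. Its removal changes the open reading frame from 267 to 371 codons, and that of the others gives 367 to 370. The candidate of 26 bases is shown in capitals with 15 bases on each side.
Xbp1 intron: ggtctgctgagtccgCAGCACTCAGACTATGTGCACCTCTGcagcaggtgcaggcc

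In these files a gene's length varied between tumors only where the annotation had several transcripts: of the genes with at least 10 counts, all 9133 genes with 1 RefSeq transcript had identical lengths in the 6 tumors. For Xbp1, which has 2 RefSeq transcripts, the length was 2263.51, 2263.34 and 2263.21 bases in control replicates 1 to 3 and 2262.84, 2256.38 and 2259.35 bases in test replicates 1 to 3. Every test tumor was below every control tumor, with test replicate 1 close to the controls and test replicate 2 the lowest. Test replicate 2 is also the tumor in which short genes were high, and it alone had the shortest length for 34.7% of the 2845 genes with several transcripts and lengths that differed between tumors, against 6.7% to 10.8% for each other tumor, and for 4 of the 8 such members (Hspa5, Canx, Sel1l and Xbp1). The part of this trend in the length of Xbp1 was not tested. The means were 2263.35 ± 0.15 and 2259.52 ± 3.23 bases (SD, n = 3 each), a difference of -3.83 bases with an exact permutation p of 0.1 (two-sided, the smallest that 3 against 3 tumors allow). Without test replicate 2 the difference was -2.26 bases. Of the same 2845 genes, 7.17% were lower in every test tumor than in every control tumor and 2.53% were higher, so a gene with such an order was not rare, and Hspa5 had it as well. That the deposited length is a mean over transcripts weighted by their abundance was inferred from these values and is not stated in the sources used here. Were that so, and were the 2 Xbp1 transcripts to differ by the 26-base intron alone, the difference in mean length would equal a spliced share 14.7 percentage points larger in the test tumors (10.1 to 13.2 points with the other candidates); relative to control replicate 1 the share would be larger by 0.65 and 1.15 points in control replicates 2 and 3 and by 2.58, 27.4 and 16.0 points in the test tumors. The transcript sequences behind the deposited length were not used here, and this readout was chosen after the values were seen.

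**Figure D4:**
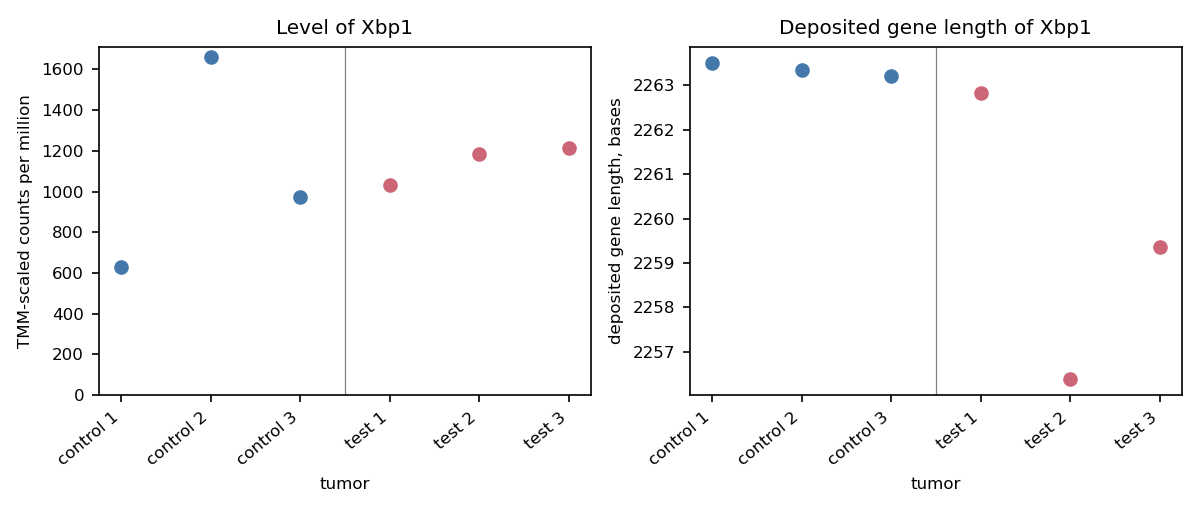
Level of Xbp1 in TMM-scaled CPM (left, axis from 0) and its deposited gene length in bases (right, axis not from 0), in each tumor; blue points are control and red points test tumors. The levels overlap between the groups, while the length lies from 2263.21 to 2263.51 bases in control tumors and from 2256.38 to 2262.84 bases in test tumors.

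Atf4 (NCBI Gene 11911, chr15:80255184-80257545), the factor that Eif2ak3 and other kinases of the integrated stress response raise through translation, was at 125.3, 109.9 and 138 CPM in control tumors and at 167.3, 144.0 and 185.1 CPM in test tumors. Every test tumor was above every control tumor, with test replicate 2 just above control replicate 3. For Atf4 the log2 fold change was 0.41 (standard error 0.23, 95% interval -0.13 to 0.95, unadjusted p = 0.116, adjusted p = 0.693; exact permutation p = 0.1, two-sided). It was 0.33 without control replicate 2. The groups of Atf4 overlapped on the deposited FPKM, at 81.8 FPKM in control replicate 3 against 78.6 FPKM in test replicate 2, and also once counts were scaled by library totals alone or the length trend was removed, which gave a log2 fold change of 0.33. Ddit3 (CHOP), a factor induced downstream of Atf4, went the other way. It was at 24.1, 5.19 and 9.48 CPM in control tumors and at 7.38, 7.69 and 12.8 CPM in test tumors. Control replicate 1 alone was high, and control replicate 2 was the lowest tumor. For Ddit3 the log2 fold change was -0.47 (standard error 0.58, 95% interval -1.82 to 0.88, adjusted p = 0.838), and without control replicate 1 it was 0.34. With the length trend removed it was -0.77 (95% interval -2.36 to 0.81), and without control replicate 2 it was -0.85. The median of the 6 sensors and factors was -0.21, with 2 higher and 4 lower, and 0.09 without test replicate 2.

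Targets of Atf4 and Ddit3 had positive log2 fold changes, with a median of 0.38 over the 3 genes. Asns, the asparagine synthetase, was the most abundant at a mean of 42.9 FPKM. Its levels were 45.4, 100.6 and 59.7 CPM in control tumors and 102.0, 92.8 and 93.4 CPM in test tumors. Control replicate 2 lay among the test tumors and the 2 other controls lay below them. For Asns the log2 fold change was 0.49 (standard error 0.32, 95% interval -0.26 to 1.24, adjusted p = 0.723), and without control replicate 2 it was 0.87 (95% interval 0.22 to 1.53, unadjusted p = 0.017, adjusted p = 0.215). Trib3, a pseudokinase induced by stress, and Chac1, an enzyme that degrades glutathione, had 0.38 and 0.33, and the groups overlapped for both. With a tumor left out, Trib3 ran from 0.18 (without test replicate 2) to 0.69 (without control replicate 1). Chac1 ran from 0.02 (without test replicate 1) to 0.48 (without test replicate 2). The amino acid response element lay in the promoter windows of all 3 targets and of Herpud1, 4 of 33 members (12.1%), and in 3.97% of all windows. It is shown in capitals for Asns and, on the opposite strand, for Chac1.
Asns, chr6:7693215-7693242, minus strand: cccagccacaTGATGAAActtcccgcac
Chac1, chr2:119351039-119351066, plus strand: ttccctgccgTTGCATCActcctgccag

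**Figure D5:**
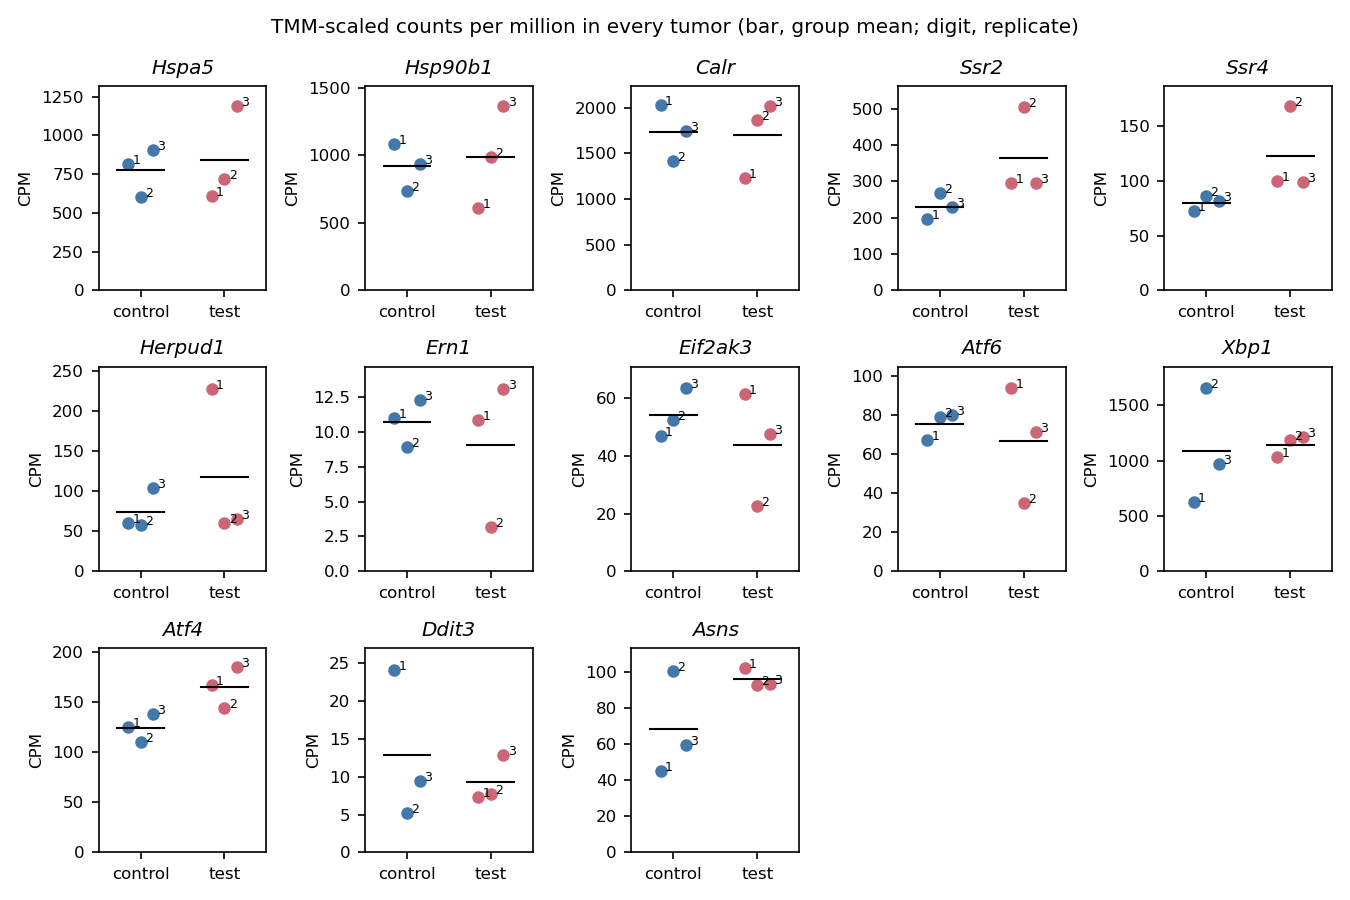
CPM of 13 members, scaled by TMM, in every tumor (points; the digit is the replicate) with the mean of each group (bar), each axis from 0. Ssr2, Ssr4 and Atf4 are the genes without overlap, and single tumors set apart Herpud1 (test replicate 1), Ddit3 (control replicate 1), Xbp1 (control replicate 2) and the 3 sensors (test replicate 2).

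Other genes of the pathway were taken from lists of 147 genes, of which 145 were tested. Their median log2 fold change was 0.02, and at an unadjusted p under 0.05 4 of them had higher (2.76%) and 6 lower (4.14%) levels in test tumors, against 3.15% and 5.26% of all tested genes; 0 reached an adjusted p of 0.05. Of the 14 genes of the signal recognition particle, its receptor and translocation 13 were higher, with a median of 0.20, and 2 had an unadjusted p under 0.05. These were Srp9, an RNA-binding subunit of the particle (log2 fold change 0.76, adjusted p = 0.556), and Sec11a, a catalytic subunit of signal peptidase (0.65, adjusted p = 0.567), both highest in test replicate 2. With the length trend removed they had 0.55 and 0.39, and the median of the list was 0.24. The unadjusted p of Sec11a was then 0.059, and 0.057 without control replicate 2, so this gene did not meet that threshold in either setting. The oligosaccharyltransferase genes had a median of 0.21 (12 genes), the other folding enzymes -0.01 (18 genes), the other degradation genes 0.04 (17 genes), the genes of transport between ER and Golgi -0.01 (34 genes), and those of the integrated stress response 0.04 (31 genes). Among these the lower genes at that threshold were Sec16b, of ER exit sites (-1.15, adjusted p = 0.483), Uggt1, which senses the folding of glycoproteins (-0.81, adjusted p = 0.547), and 1 gene of the integrated stress response list. With the trend removed, Sec16b had -0.95 with overlap and an unadjusted p of 0.071, outside that threshold, and Uggt1, of 9045 bases, had -0.57 (unadjusted p = 0.045). On the same scale, the median of the oligosaccharyltransferase genes was -0.11, with 2 of 12 higher, so its sign turned; the other medians of these lists were -0.06 for folding, 0.15 for degradation, -0.02 for transport and 0.03 for the integrated stress response. The 12 cytosolic and mitochondrial chaperones, taken for comparison, had a median of -0.05, with 0 at that threshold.

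Of the membrane-bound factors related to Atf6, 0 passed the adjusted test. Creb3l1 was at 41.3, 32.6 and 50.3 CPM in control tumors and at 144, 51.3 and 86.0 CPM in test tumors, without overlap, although test replicate 2 was close to control replicate 3 (log2 fold change 1.18, standard error 0.40, adjusted p = 0.483). Creb3l2 was at 96.5, 52.9 and 89.5 CPM in control tumors and at 48.0, 17.5 and 42.6 CPM in test tumors, also without overlap (-1.15, standard error 0.42, adjusted p = 0.518). Creb3l4 was at 0.810, 1.51 and 0 CPM in control tumors and at 20.1, 5.01 and 5.09 CPM in test tumors (3.68, standard error 1.10, adjusted p = 0.454). Creb3l4 had few reads in control tumors, with 7, 14 and 0 expected counts, against 174, 41 and 48 in test tumors. It passed the filter on low counts through its test tumors, and the stricter filter drops it. With control values near 0, the size of its fold change is uncertain. Creb3l1, Creb3l2 and Creb3l4 had the unadjusted p under 0.05 in a list of 11, of which 9 were tested and whose median was -0.03. At that p, 22.2% of the tested genes of the list were higher and 11.1% lower, against 3.15% and 5.26% of all tested genes. All 3 genes were without overlap, against 12.0% of all tested genes. With the length trend removed their log2 fold changes were 1.17, -1.11 and 3.64, and the groups of Creb3l1 then overlapped. Without control replicate 2 the log2 fold changes were 1.035, -1.367 and 4.617 in the same order. The last of these rests on controls with 7 and 0 expected counts. The unadjusted p of Creb3l1 was then 0.062, outside that threshold.

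Collagen folding and hydroxylation genes had the lowest median of the lists, -1.39, with 9 of 10 lower in test tumors. Their summed FPKM was 839, 178.7 and 526 in control tumors and 108.7, 225 and 209.4 in test tumors, so control replicate 2 lay among the test tumors. Plod1, a lysyl hydroxylase of collagen, was at 757, 109.8 and 534 CPM in control tumors and at 38.7, 59.3 and 59.0 CPM in test tumors. Its control replicate 2 was far below the 2 other controls and still above every test tumor (log2 fold change -3.16, standard error 0.66, adjusted p = 0.394). Without control replicate 2, Plod1 passed the test, with a log2 fold change of -3.62 and an adjusted p of 0.014, and the median of the list was -1.73. In that setting 7 of the 10 genes were lower at an unadjusted p under 0.05 and 8 lay below every control tumor, against 2 and 1 with all 6 tumors; over all genes, 14.3% then had that p in either direction and 19.1% lay below every control tumor. The median was -1.38 with the length trend removed, with 2 at that p and 1 below every control tumor. P4ha2, a prolyl hydroxylase subunit that works with P4hb, had -1.44 (unadjusted p = 0.0311, adjusted p = 0.533), and its groups overlapped; without control replicate 2 its unadjusted p was 0.067. The most abundant gene of the list was Serpinh1, the collagen chaperone.

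Markers of epithelium and milk genes were taken as measures of the make-up of the tumors and of the secreted load; 0 of them passed the adjusted test. Epithelial keratins and adhesion genes (Krt8, Krt18, Krt19, Epcam, Cdh1) were higher on average in test tumors for 5 of 5 genes. Of these, 3 had an unadjusted p under 0.05, against 3.15% of all tested genes higher at that p. Krt8, Krt18 and Krt19 were above every control tumor in every test tumor, against 6.12% of all tested genes, and the groups overlapped for Epcam and Cdh1. Without control replicate 2 the median log2 fold change of the 5 epithelial genes was 1.55, with 5 genes at that p and 5 without overlap. With the length trend removed it was 0.88, with 2 at that p and 2 without overlap. Over all genes, 14.3% had that p and 35.3% were without overlap in the first setting, and 8.6% and 12.4% in the second. The summed FPKM of these epithelial genes was 1024, 2015 and 866 in control tumors and 2702, 2622 and 2788 in test tumors, with Krt18 the most abundant. Milk genes, cargo of this pathway in mammary epithelium, summed to 5020, 2954 and 4357 FPKM in control tumors and to 11864, 12983 and 11866 FPKM in test tumors, of which Csn3 was the most abundant. Of the 6 milk genes tested 5 were higher and 1, Csn1s1, was lower on average in test tumors. For 3, Csn2, Csn3 and Ltf, every test tumor lay above every control tumor, against 6.12% of all tested genes. The groups overlapped for Csn1s1, Lalba and Wap. Csn2 had few reads, with 4, 6 and 5 expected counts in control tumors and 81, 210 and 16 in test tumors. Csn3 alone was at 4088, 1585 and 4134 FPKM in control tumors and at 10248, 6286 and 9826 FPKM in test tumors. Both sums were without overlap, while the summed FPKM of the 40 members overlapped. Of the plasma cell genes, Jchain was at most 2.18 FPKM, Mzb1 at most 0.85 FPKM and Tnfrsf17 at most 0.14 FPKM in any tumor; Tnfrsf17 was at 0 in 3 of the 6. The list summed to 90.5, 35.8 and 61.0 FPKM in control tumors and to 48.9, 33.6 and 69.1 FPKM in test tumors, mostly from Sdc1, which epithelium also expresses, and, in control replicates 1 and 3, from Pou2af1 at 59.1 and 30.4 FPKM. The part of these markers in the levels of the 40 members was not tested.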

How the data were processed

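Total RNA of 6 tumors was sequenced (libraries by BGI, Illumina HiSeq). The authors aligned reads to mm10 with Bowtie; the submitters' processing notes also name RSEM and BWA, without versions. The deposited expected count is an estimate of the reads of a gene and is not normalized. The deposited FPKM was normalized by the authors for gene length and depth, and the deposited gene length is given in bases with other values of that gene. Genes not listed for a tumor were set to 0. Of 18460 NCBI Gene identifiers, 18400 matched RefSeq on GRCm38.p6, from which promoter windows and coordinates were taken.

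Expected counts were rounded. Tests were run with edgeR 4.0.16 under R 4.3.3 (filterByExpr, TMM, quasi-likelihood test of 3 test against 3 control tumors). P-values were adjusted by the Benjamini-Hochberg method over 13706 genes. An adjusted p given with a tumor left out was adjusted over the genes tested without that tumor, which were 14166 without control replicate 2. Fold changes are test minus control. Exact permutation tests (scipy 1.17.1) used log2(CPM + 0.5) or, for the length of Xbp1, the deposited length in bases. Alternatives were DESeq2 1.42.0, RLE, library totals, 2 other filters (no filter, or at least 10 counts in every tumor), limma 3.58.1 on log-scale FPKM (pseudocount 1 or 0.1, genes averaging 1 FPKM or more), a block for the replicate number, and each tumor left out; removal of the gene length trend and the Xbp1 length were chosen after seeing the data. The fits were tested on simulated data.

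Members and lists were chosen with earlier results of these data known. Values per tumor are given for members without overlap or with an unadjusted p under 0.05, the most abundant of each role, and Hspa5, Xbp1, Atf4, Ddit3, Ern1, Eif2ak3 and Atf6; of other pathway genes, at most 5 a direction at that p. P-values measure the spread between tumors of separate mice, and a floor of 3 counts covers counting error only.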

Additional observations from a re-analysis of the deposited data

How the results depend on the processing

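The count of genes at a false discovery rate of 0.05 was 0 in edgeR, 313 with DESeq2 and 1 with limma on log2(FPKM + 1), and ran from 0 to 182 when a tumor was left out, highest without control replicate 2; the cause was not tested. With 1 tumor left out, members at an unadjusted p under 0.05 ran from 0 to 2 (0% to 5%, against 4.7% to 14.3% of all genes), and other pathway genes at that p from 4 to 16 (2.8% to 11.0%). Members without overlap ran from 4 to 10. Their share was 10% without control replicate 1 (15.5% of all genes), 20% without control replicate 2 (35.3%), 17.5% without control replicate 3 (16.9%), 25% without test replicate 1 (23.9%), 17.5% without test replicate 2 (22.5%) and 15% without test replicate 3 (22.8%). The median log2 fold change of the members was between 0.03 and 0.21 without a tumor, lowest without test replicate 3, and between 0.08 and 0.12 under the other settings. An ER stress response element with 1 mismatch lay in 48.5% of the members and in 1.504% of all windows.

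With all 6 tumors kept, the sign turned for 5 members once the length trend was removed (Creld2, Pdia6, Sec61g, Spcs1, Derl3), for 1 (Pdia6) with limma and with the replicate block, and for 0 under the other settings. With a tumor left out it turned for 2 to 8 members. The log2 fold change then ran from -0.21 to 0.30 for Hspa5, from -0.18 to 0.36 for Hsp90b1, from -0.15 to 0.17 for Calr, from -0.24 to 0.98 for Herpud1, from -0.60 to 0.16 for Ern1, from -0.63 to 0.007 for Eif2ak3, from -0.50 to 0.13 for Atf6, from -0.21 to 0.51 for Xbp1 and from -0.85 to 0.34 for Ddit3. Those of Ssr2 (0.36 to 0.80), Ssr4 (0.31 to 0.75), Atf4 (0.33 to 0.51) and Asns (0.26 to 0.87) stayed positive.

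With the replicate number as a block, a paired fit, 0 genes were called, 0 members had an unadjusted p under 0.05 and the members' median was 0.11. Deviations of same-numbered tumors correlated at -0.03, 0.12 and -0.14, within the range of the other pairs, -0.16 to 0.22. These values, from 3 tumors a group, cannot show whether the numbers pair the tumors, and the labels do not say. Test replicate 3 correlated best with control replicate 1 (0.22). Among the members, 22 of 40 intervals reached beyond 1 log2 unit from 0, and the size of difference that 3 tumors a group can show was not tested.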

Other observations

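Markers of other cell types, none of them members, are given for the tissue around these genes. Skeletal muscle genes were higher on average in test tumors for 8 of 8, with summed FPKM of 4.8, 106.5 and 3.3 in control tumors and 549, 109.8 and 63.3 in test tumors, and Acta1 the most abundant. Their median log2 fold change was 2.97, with 1 at an unadjusted p under 0.05 and 0 without overlap (8.4% and 12.0% of all genes). Without control replicate 2 it was 6.24, with 8 at that p and 8 without overlap (14.3% and 35.3% of all genes). Adipocyte genes summed to 36.9, 17.8 and 30.8 FPKM in control tumors and to 314, 82.2 and 22.9 FPKM in test tumors, mostly Fabp4. Test replicate 1 was the highest tumor for both of these lists. Myoepithelial genes summed to 1048 FPKM in control replicate 3 and to between 125.1 and 385 FPKM in the other 5 tumors, with Acta2 the most abundant. Fibroblast genes summed to 228.3, 631 and 416 FPKM in control tumors and to 372, 1016 and 409.9 FPKM in test tumors, highest in test replicate 2. Macrophage genes summed to 468, 542 and 879 FPKM in control tumors and to 456, 894 and 502 FPKM in test tumors, with Lyz2 the most abundant, so the groups overlapped. Of these 7 genes 3 were higher on average in test tumors and 4 lower, with a median log2 fold change of -0.43, and Cd14, singled out after its values were seen, was without overlap at 1.06 (adjusted p = 0.483). Endothelial genes summed to between 29.3 and 41.8 FPKM in the 6 tumors, 3 of 5 higher. T cell genes summed to between 3.0 and 5.2 FPKM and mast cell genes to between 1.1 and 10.7 FPKM in the 6 tumors.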
